A study of Mus musculus with 15 samples.

Results

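PD-1+ CD8+ T cells from mouse tumours that carried Tim-3 were compared with PD-1+ CD8+ T cells that did not. TIM-3_SP cells were sorted as positive for Tim-3 and negative for B7S1R, the receptor for the inhibitory B7-family ligand B7S1. DN cells were negative for both, so that the sort set the populations apart by Tim-3 alone. The comparison used 6 of the 15 libraries of the series, 3 TIM-3_SP and 3 DN, chosen by their titles. In each population 2 libraries came from wild-type mice, numbered 1 and 2, and 1 library was labelled KO, for a deletion of B7S1. TIM-3_SP was paired with DN within WT_1, within WT_2 and within the libraries labelled KO, which gave 3 pairs. All mice were female and had received 1000000 E.G7 cells under the skin when 6 to 8 weeks old, and no group had a treatment. The E.G7 line is an ovalbumin-producing T cell lymphoma. Tumours were taken on day 21, and the age label of every library reads 9 to 11 weeks.

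Tim-3, encoded by Havcr2, is an inhibitory receptor. In tumours and chronic infection PD-1+ CD8+ T cells range from stem-like cells, which depend on the transcription factor TCF-1 (encoded by Tcf7) and renew the pool, to Tim-3+ cells, which hold granzymes and perforin and have lost much of their capacity to divide over the long term. Chemokines made by such cells draw in other cells, and the chemokine and lipid-sensing receptors on their surface set where the cells themselves settle.

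The labels limit what the groups stand for. The genotype field reads wild type for the libraries numbered 1 and 2, but B7S2 KO for the TIM-3_SP library and B7S3 KO for the DN library of the third pair. The strain field counts upward across the libraries, from C57BL/6 in TIM-3_SP WT_1 to C57BL/13 in the DN library labelled KO. Vtcn1, the gene of B7S1, was listed at 0 FPKM in both WT_2 libraries, at 1.02 in the DN library labelled KO and at 2.50 in the TIM-3_SP library labelled KO. It was not analysed here in the WT_1 pair. The transcript was thus not lower in the libraries labelled KO than in WT_2. Values this low cannot settle the genotype, so the third pair is called the pair labelled KO. How many mice gave each library is not given in the sources used here, so p-values measure the spread between these libraries, which may be technical. In sorted bulk RNA, fewer cells of a type and less RNA per cell cannot be told apart.

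Values were FPKM, fragment counts the authors normalised to transcript length and to the mapped library, and between 8860 and 10086 genes per library stood at 1 FPKM or more. Differences are TIM-3_SP minus DN on the log2(FPKM + 1) scale, which understates the change of low genes. They were fitted for 9904 genes, of the 14020 listed once in all 6 libraries. The gene listing differed between pairs, with 15629 rows in each WT_1 library and 17609 in each library of WT_2 and the pair labelled KO. The effect of this difference was not tested. The TIM-3_SP WT_1 library stood apart, with correlations across genes of 0.674 to 0.761 to the other 5 libraries, which correlated with one another at 0.836 to 0.945. Both WT_2 libraries held erythroid transcript, with Hba-a2, an alpha-globin gene, at 14371.31 FPKM in DN and 19136.72 in TIM-3_SP, against at most 28.99 in the other libraries. The globin genes Hba-a1 and Hbb-bs, not analysed here in the WT_1 pair, were higher still. They read 26556.31 and 21906.76 FPKM in DN WT_2 and 36288.33 and 33323.64 in TIM-3_SP WT_2, against at most 54.33 in the pair labelled KO. The effect of this load on the FPKM of other genes was not tested. T cell transcripts were high in all 6 libraries. Cd8a read 512.36, 323.32 and 125.25 FPKM in DN (WT_1, WT_2 and labelled KO, the order kept below) and 479.71, 475.07 and 301.46 in TIM-3_SP, while Cd4 stood between 0 and 6.03. The sort itself was visible in Havcr2, at 0.65, 4.09 and 0.16 FPKM in DN against 157.22, 81.8 and 27.44 in TIM-3_SP. Pdcd1, which encodes PD-1 and was positive in both sorts, read 141.7, 136.6 and 12.1 FPKM in DN and 488.7, 83.8 and 17.7 in TIM-3_SP, and these ranges overlapped.

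Fcrl6, Gzmc, Ccl3 and Gzmb rose in TIM-3_SP, the only genes past an adjusted p of 0.05 in limma with the pair as a block (0.0404% of genes tested), and 0 genes fell (0%). Without regard to multiple testing, 863 genes (8.71%) had a p under 0.05, 237 of them higher (2.39%) and 626 lower (6.32%). Fcrl6, an Fc receptor-like protein of cytotoxic lymphocytes that binds MHC class II, had the largest rise of the 4. It read 0.57, 1.24 and 0.87 FPKM in DN and 88.69, 64.16 and 64.34 in TIM-3_SP, so that it was near 1 in every DN library and above 60 in every TIM-3_SP library. The log2 difference was 5.28 ± 0.51 (SE, n = 3 pairs; limma adjusted p = 0.0415). Ccl3, which encodes the inflammatory chemokine MIP-1 alpha, read 30.18, 199.08 and 119.5 FPKM in DN and 1083.35, 3427.89 and 3980.68 in TIM-3_SP. Its difference was 4.76 ± 0.52 with the same adjusted p of 0.0415 in limma. Gzmc and Gzmb, granule proteases of killer cells, rose by 4.78 ± 0.49 and 4.68 ± 0.52, also at 0.0415. Without the pair as a block Fcrl6 alone passed (limma adjusted p = 0.0284), and the other 3 had 0.361. With a limma prior that follows expression level, 31 genes rose and 33 fell, these 4 among the 31. With the WT_2 pair left out 0 genes passed in limma, and with the WT_1 pair, which holds the library that stood apart, left out 8 rose and 2 fell, these 4 again among the 8.

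Among the genes tested, 869 (8.77%) were higher in TIM-3_SP in all 3 pairs and 1964 (19.8%) were lower. Both shares are the background for the list counts given below. The higher genes were 30.7% of those with one direction. This split depended on the scaling. With the libraries shifted to a common median, 1589 genes were higher and 1270 lower (55.6% higher), and quantile normalization gave 1445 and 1499 (49.1% higher). The median difference of all genes was -0.14 as deposited and 0.04 after the shift. The direction of the differences of the checks, the strongest genes and the list members named here held under both scalings, except for Cd4, which read 0.13 and 0.17 higher there. Of the list medians given below, those of cytokines and glycolysis changed sign under both scalings and that of oxidative phosphorylation under the shift. Differences of at least 1 on the log2 scale in each pair were found in 83 genes (0.838%) upward and 191 (1.93%) downward. The 3 TIM-3_SP libraries lay above the 3 DN libraries in 230 genes (2.32%) and below them in 787 (7.95%). The genes described in what follows as the strongest had the largest difference in their weakest pair, 15 in each direction, leaving out granzymes and memory genes. Their weakest pair reached 1.88 for the last of the higher genes and -2.06 for the last of the lower genes. The next genes outside, Nudt10 and Anxa1, had 1.88 and -2.06. Of these, Fcrl6 and Ccl3 passed. The values of the others are a description, and their groups did not overlap except for Prf1 and Clgn. Because the genes were chosen for a large gap in every pair, this separation follows in large part from the choice. Some, such as Mrgprb3, Tmprss6, Tnfrsf25 and Lipm, passed the filter on mean level only through the population in which they were high.

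**Figure D1:**
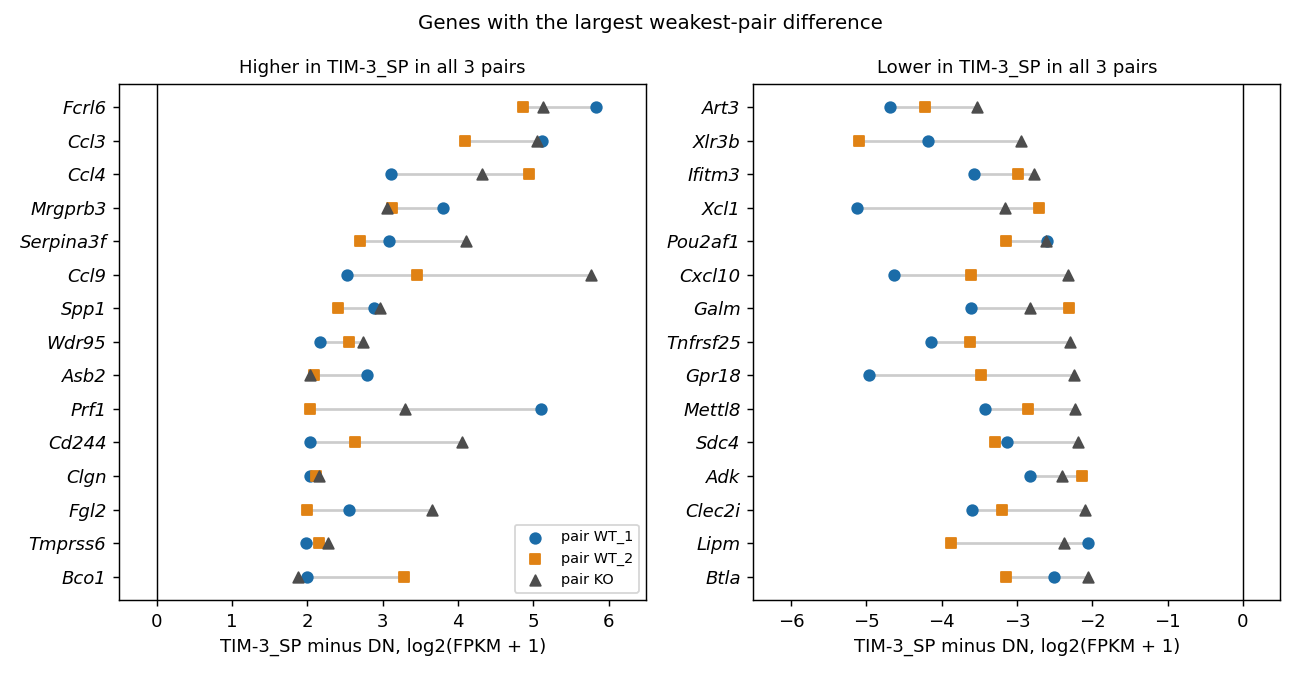
TIM-3_SP minus DN on the log2(FPKM + 1) scale (horizontal axis) for the 15 genes in each direction with the largest difference in their weakest pair, 1 marker per pair. Fcrl6 lies between 4.86 and 5.84 in its 3 pairs, and Btla, the last of the lower genes, has a weakest pair of -2.06.

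Secreted factors differed in both directions. Of 7 chemokines tested, 4 were higher in all 3 pairs (Ccl3, Ccl4, Ccl9 and Ccl5) and 3 were lower (Xcl1, Cxcl10 and Ccl1), so none changed direction between pairs. One of the 7 passed, Ccl3. The median over the list, which is the value of Ccl5, was 2.11, against -0.14 over all genes, and ran from 0.51 to 2.99 under the alternatives. Because they carry the opposite directions, the 250 bases before the start of Ccl3, Xcl1 and Cxcl10 are shown, from RefSeq (GRCm38.p6), 5′ to 3′ on the gene's strand. Capitals mark matches, on either strand, to AP-1 (TGANTCA), NFAT (GGAAAA), TCF/LEF (CTTTGA), T-box (GGTGTGA), the interferon response element or an E-box (CAGCTG).
Ccl3, chr11:83649379-83649628, minus strand: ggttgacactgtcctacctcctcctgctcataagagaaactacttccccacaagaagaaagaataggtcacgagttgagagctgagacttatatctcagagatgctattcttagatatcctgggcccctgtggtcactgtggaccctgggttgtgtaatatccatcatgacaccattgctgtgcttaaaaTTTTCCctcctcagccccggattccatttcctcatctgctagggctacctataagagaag
Xcl1, chr1:164935523-164935772, minus strand: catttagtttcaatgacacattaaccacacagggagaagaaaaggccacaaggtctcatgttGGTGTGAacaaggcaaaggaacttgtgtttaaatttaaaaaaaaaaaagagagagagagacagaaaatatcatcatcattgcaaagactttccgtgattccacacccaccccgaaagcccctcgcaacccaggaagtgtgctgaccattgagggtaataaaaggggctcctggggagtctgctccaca
Cxcl10, chr5:92348890-92349139, minus strand: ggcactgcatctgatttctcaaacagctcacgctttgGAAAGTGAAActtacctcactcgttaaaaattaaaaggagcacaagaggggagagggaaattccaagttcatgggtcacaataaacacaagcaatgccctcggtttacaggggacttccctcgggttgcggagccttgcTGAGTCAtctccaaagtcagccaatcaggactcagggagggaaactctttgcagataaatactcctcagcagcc
The Ccl3 window held 1 NFAT match, the Xcl1 window 1 T-box match, and the Cxcl10 window 1 interferon response element and 1 AP-1 match. Of 32851 promoters in the table, 20.4% held the NFAT letters, 3.33% the T-box letters, 2.98% the interferon response element and 6.75% the AP-1 letters, 13.8% the TCF/LEF letters and 13.0% the E-box. Such matches describe letters and not binding.

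Ccl4, which encodes the chemokine MIP-1 beta, read 303, 184.24 and 343.87 FPKM in DN and 2622.2, 5709.17 and 6879.59 in TIM-3_SP. Its difference was 4.12 ± 0.56 (limma adjusted p = 0.0887). The annotated spans of Ccl3 (chromosome 11, 83647843 to 83649378, mm10) and Ccl4 (83648624 to 83664683) overlap, so reads could not be assigned between them with certainty. Ccl9, a chemokine that binds CCR1, read 0.34, 0.4 and 0.32 FPKM in DN and 6.76, 14.36 and 71.06 in TIM-3_SP. All DN libraries were under 1 FPKM, and the TIM-3_SP values spread widely (3.92 ± 0.68, adjusted p = 0.207). Ccl5, or RANTES, was already high in DN, at 2910, 1372 and 662.3 FPKM, and read 3718, 7267 and 7894 in TIM-3_SP. Its pair differences ran from 0.35 in WT_1 to 3.57 in the pair labelled KO. Ccl3, Ccl4, Ccl5 and Ccl9 lie on chromosome 11 between 83525778 and 83664683.

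Xcl1, or lymphotactin, which attracts cross-presenting dendritic cells through XCR1, was lower in TIM-3_SP. It read 1436.02, 899.66 and 1735.24 FPKM in DN and 40.04, 136.35 and 193.68 in TIM-3_SP, with no overlap (-3.67 ± 0.61, limma adjusted p = 0.201). Cxcl10, an interferon-induced ligand of CXCR3, read 262.66, 41.33 and 13.29 FPKM in DN and 9.68, 2.46 and 1.87 in TIM-3_SP. DN was thus higher in every pair, although levels differed widely between pairs (-3.52 ± 0.59, adjusted p = 0.201). Art3, an ADP-ribosyltransferase gene and the strongest of the lower genes, read 56.07, 17.61 and 10.52 FPKM in DN and 1.21, 0 and 0 in TIM-3_SP (-4.14 ± 0.52, adjusted p = 0.0663). The span of Art3 (chromosome 5, 92331799 to 92414628, mm10) encloses that of Cxcl10 (92346638 to 92348889), and the strand used in counting is not given in the sources used here, so the reads of these genes could not be told apart with certainty. Ccl1, a ligand of CCR8, had -1.32 ± 0.51, and its groups overlapped.

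Spp1, which encodes the secreted phosphoprotein osteopontin, read 234.94, 598.11 and 203.67 FPKM in DN and 1752.62, 3185.04 and 1603.45 in TIM-3_SP. Every TIM-3_SP library was above every DN library (2.76 ± 0.50, limma adjusted p = 0.207). Ifng, which encodes interferon gamma, was also separated, at 264.75, 373.36 and 99.99 FPKM in DN and 911.82, 1691.56 and 1076.79 in TIM-3_SP (2.46 ± 0.55, adjusted p = 0.329). Fgl2, a fibrinogen-like protein that can be secreted by T cells and inhibit them, read 1.68, 1.54 and 0.03 FPKM in DN against 14.73, 9.18 and 11.91 (2.73 ± 0.55). Il2, the T cell growth factor, and Tnfsf8, the CD30 ligand, read lower in all pairs (-2.16 ± 0.78 and -2.61 ± 0.77), with overlapping groups. Over 15 cytokine and death ligand genes, 5 were higher in all pairs, 4 were lower and 0 passed, with a median of -0.06.

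**Figure D2:**
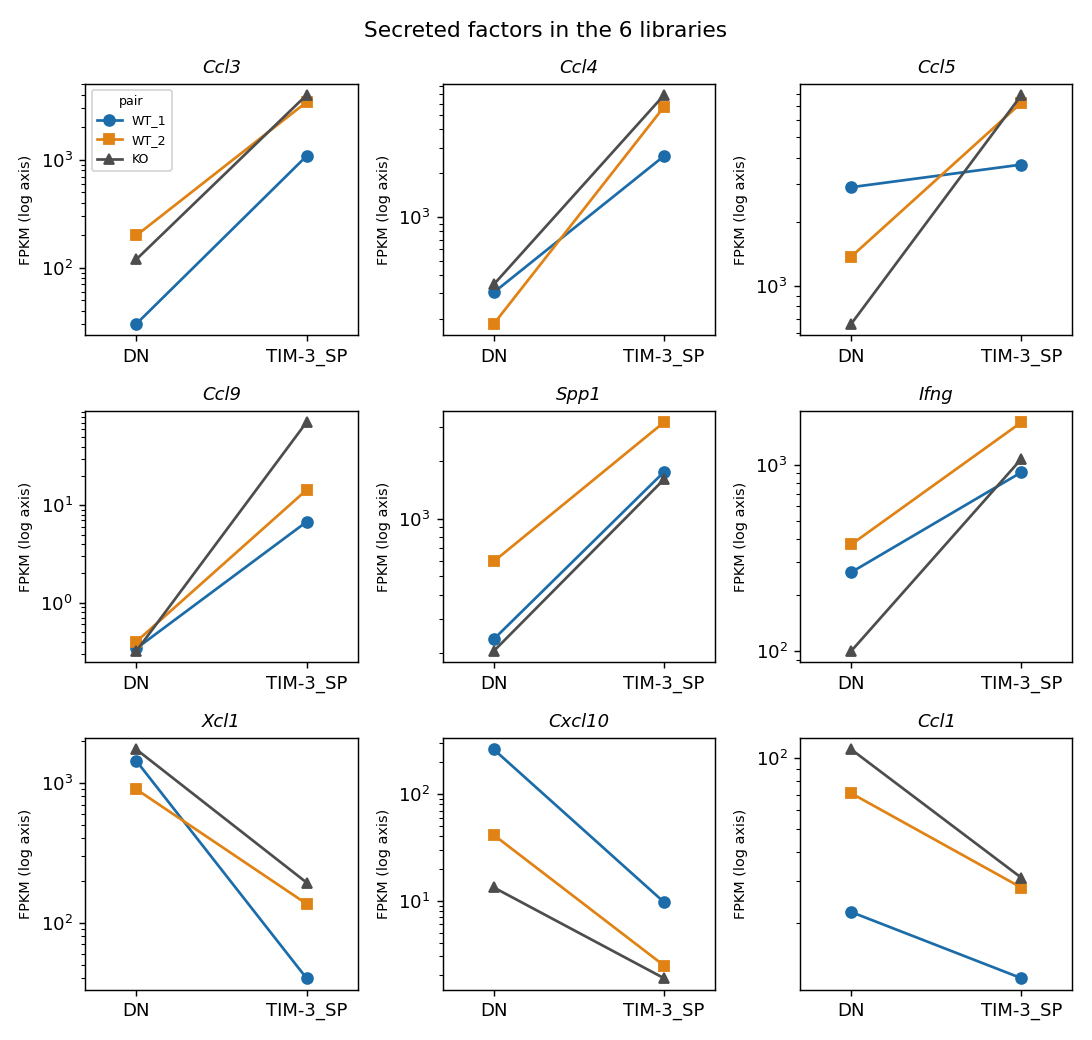
FPKM (log axis) of 9 secreted factors in the DN and TIM-3_SP library of each pair, joined by a line. Ccl3, Ccl4, Ccl5, Ccl9, Spp1 and Ifng slope upward in all 3 pairs and Xcl1, Cxcl10 and Ccl1 downward.

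Homing receptors also differed in both directions. Of 16 chemokine and lipid-sensing receptors tested, 7 were higher in all 3 pairs, 5 were lower and 0 passed in limma. Ccr7, Cxcr5 and S1pr1, among the lower receptors, are also members of the naive and memory list. Cxcr6, the receptor for CXCL16 and a marker of tissue T cells, read 196.9, 393.5 and 55.34 FPKM in DN and 962.5, 742.4 and 414.1 in TIM-3_SP. The ranges did not overlap (2.03 ± 0.57, adjusted p = 0.443). Cx3cr1, the fractalkine receptor, read 12.42, 8.55 and 1.48 FPKM against 38.08, 18.86 and 14.18 (1.74 ± 0.54). Gpr65, a proton-sensing receptor, had 1.29 ± 0.53.

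Gpr183, or EBI2, a receptor for oxysterols, read 209.2, 116.3 and 38.39 FPKM in DN and 37.52, 25.83 and 11.66 in TIM-3_SP (-2.07 ± 0.50, limma adjusted p = 0.379). Cxcr5, the B cell follicle receptor, read 24.53, 15.21 and 1.97 FPKM against 1.05, 0 and 0.04 (-3.06 ± 0.62, adjusted p = 0.292). Both were separated. Gpr18, a lipid-sensing receptor of lymphocytes, read 67.25, 81.65 and 16.11 FPKM in DN and 1.2, 6.4 and 2.63 in TIM-3_SP (-3.56 ± 0.63). Gpr18 was not a member of this list, and it lies within the span of Ubac2, whose difference was -1.40 ± 0.50. Ccr7, the lymph node homing receptor, had -2.33 ± 0.62 with overlapping groups. The list median was -0.53, and 0.46 over the receptors with a mean of at least 5 FPKM, so the list as a whole had no stable direction. Of the sphingosine-1-phosphate receptors in it, S1pr1, which guides exit from tissue, was lower in all pairs, S1pr4 was higher in all pairs (24.43, 2.38 and 2.34 FPKM in DN, 60.3, 6.92 and 2.36 in TIM-3_SP) and S1pr5 differed in direction between pairs.

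Surface receptors with inhibitory or activating roles differed among themselves. Of 17 inhibitory receptor genes tested, 6 were higher in all pairs, Havcr2 among them, which the sort set, 1 was lower and 0 passed, with a median of 0.52. The median was -0.05 without the pair labelled KO. Cd244, the SLAM-family receptor 2B4, read 5.88, 2.54 and 0.04 FPKM in DN and 27.05, 20.87 and 16.31 in TIM-3_SP (2.90 ± 0.57, limma adjusted p = 0.292). Lilrb4a and Lilr4b, neighbouring immunoglobulin-like receptor genes of similar sequence whose reads could be split between them, had 2.71 ± 0.67 and 2.55 ± 0.64. Lilr4b was chosen after its values were seen. Lilrb4a read 24.16, 82.44 and 6.43 FPKM in DN and 165.41, 179.33 and 144.12 in TIM-3_SP. Entpd1, the ectonucleotidase CD39, had 2.52 ± 0.68 and Cd200r1, the CD200 receptor, 2.16 ± 0.66, both separated. Lag3 (0.75) and Ctla4 (0.52), targets of checkpoint antibodies, differed in direction between pairs.

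Btla, the receptor for HVEM, was the 1 inhibitory receptor lower in all pairs. It read 19.5, 22.45 and 9.03 FPKM in DN and 2.61, 1.64 and 1.4 in TIM-3_SP (-2.57 ± 0.51, limma adjusted p = 0.292), with every DN library above every TIM-3_SP library. Tnfrsf25, the death receptor for TL1A, read 21.06, 11.4 and 3.88 FPKM in DN and 0.25, 0 and 0 in TIM-3_SP. Of 10 killer lectin-like receptors, 3 were higher in all pairs and 1 was lower. Klrd1 (CD94) and Klrc1 (NKG2A), which form an inhibitory heterodimer, had 1.41 ± 0.54 and 1.35 ± 0.66. Without the pair labelled KO, Klrc1 had 0.45, and the list median of 0.82 became -0.32. Klrb1f read 5.18, 7.25 and 3.06 FPKM in DN and 0.23, 1.17 and 0 in TIM-3_SP (-2.09 ± 0.49). Clec2i, a lectin that binds receptors of the Klrb1 family, was also lower, at 19.58, 18.34 and 16.51 FPKM against 0.7, 1.11 and 3.1. Of 7 genes for ligands and partners of Tim-3, 0 had one direction in all pairs. Lgals9, which encodes the ligand galectin-9, read 119.4, 116.1 and 132.2 FPKM in DN and 88.57, 116.9 and 91.86 in TIM-3_SP.

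**Figure D3:**
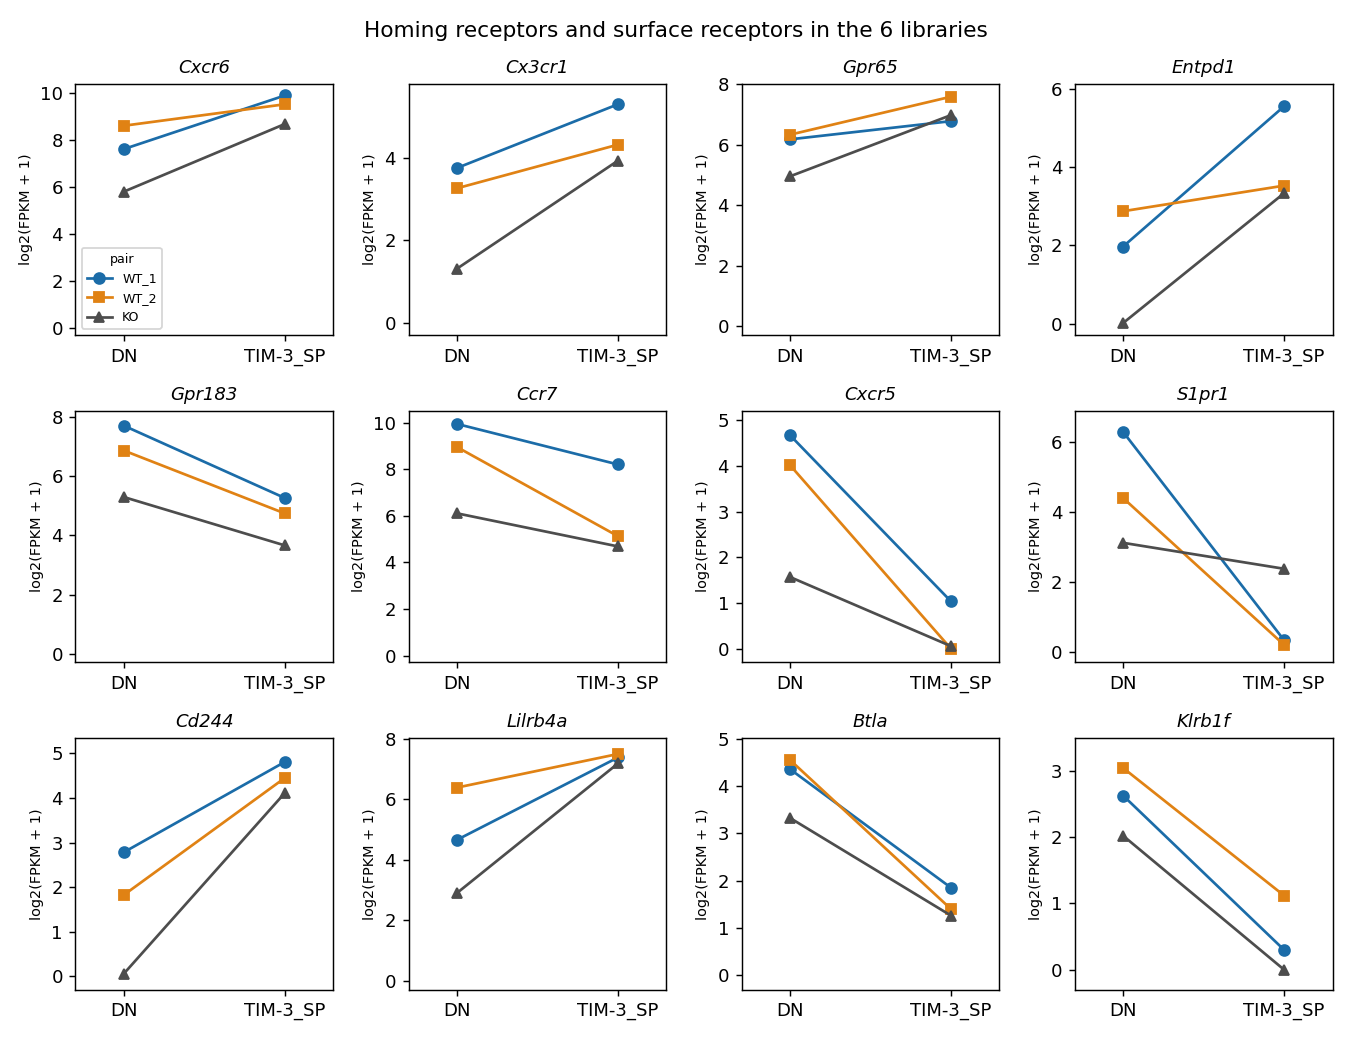
Level of 12 receptor genes on the log2(FPKM + 1) scale in the DN and TIM-3_SP library of each pair, joined by a line. Cxcr6, Cx3cr1, Gpr65, Entpd1, Cd244 and Lilrb4a slope upward in all 3 pairs, and Gpr183, Ccr7, Cxcr5, S1pr1, Btla and Klrb1f downward.

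Genes of the granule pathway other than the proteases were higher in part. Prf1, the pore former, read 29.2, 30.43 and 1.54 FPKM in DN and 1036.29, 127.64 and 23.97 in TIM-3_SP. It was higher in each pair, while its lowest TIM-3_SP library lay under 2 DN libraries (3.48 ± 0.66, limma adjusted p = 0.247). Of 21 granule machinery genes, 8 were higher in all pairs, 3 were lower and 0 passed. Sytl2, which tethers granules to the membrane, had 2.19 ± 0.58 and Nkg7, a granule membrane protein, 1.48 ± 0.55. The lysosomal membrane genes Lamp1 and Lamp2 had -1.74 ± 0.54 and -1.51 ± 0.50. Lamp1 read 74.38, 47.58 and 25.06 FPKM in DN and 16.23, 9.47 and 13.34 in TIM-3_SP. Of 8 serpins of killer cells, which include inhibitors that protect against granzymes and cathepsins, 6 were higher in all pairs, 0 were lower and 0 passed. Their median was 1.22, made up unevenly, with 0.96 in WT_1, 0.16 in WT_2 and 2.58 in the pair labelled KO. Only 1 of the 8 was separated, Serpina3f. Serpina3f read 18.63, 11.91 and 0.35 FPKM in DN and 166.39, 82.69 and 22.38 in TIM-3_SP, with no overlap (3.30 ± 0.53, adjusted p = 0.201). It neighbours the paralog Serpina3g (1.80 ± 0.57) on chromosome 12, and reads could be split between them.

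Other strong genes, like Fcrl6, Art3, Fgl2, Gpr18, Tnfrsf25 and Clec2i above, belonged to none of the lists. Mrgprb3, a Mas-related G protein-coupled receptor gene, was at or near 0 FPKM in DN (0, 0 and 0.06) and read 12.91, 7.78 and 7.81 in TIM-3_SP. Mcpt8, a mast cell and basophil protease gene of the granzyme cluster on chromosome 14, was listed at 0 in all 3 DN libraries and read 17.54, 10.15 and 1.26 in TIM-3_SP. Mcpt8 was chosen after its values were seen. Asb2, a subunit of a ubiquitin ligase, read 1.78, 0.14 and 0.27 FPKM in DN and 18.26, 3.87 and 4.22 in TIM-3_SP (2.31 ± 0.50). Wdr95 (2.49 ± 0.50), the serine protease gene Tmprss6 (2.14 ± 0.49), the carotenoid oxygenase gene Bco1 (2.39 ± 0.54) and the chaperone gene Clgn (2.10 ± 0.49) were also higher in each pair.

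Among the strongest lower genes, Xlr3b, an X-linked lymphocyte-regulated gene with close paralogs among which reads could be split, read 17.13, 45.04 and 55.84 FPKM in DN and 0, 0.34 and 6.41 in TIM-3_SP (-4.07 ± 0.58, limma adjusted p = 0.114). Pou2af1, the coactivator OCA-B, read 9.76, 18.41 and 11.68 FPKM in DN and 0.77, 1.19 and 1.08 in TIM-3_SP (-2.79 ± 0.50, adjusted p = 0.207). Its libraries were alike within each population. Adk, or adenosine kinase, which clears adenosine inside the cell, read 64.52, 82.55 and 79.29 FPKM in DN and 8.2, 17.92 and 14.19 in TIM-3_SP (-2.46 ± 0.50, adjusted p = 0.292). Sdc4, the proteoglycan syndecan-4, read 21.04, 25.08 and 3.73 FPKM against 1.52, 1.67 and 0.04. Galm (-2.92 ± 0.52), a galactose mutarotase gene, Mettl8 (-2.84 ± 0.52), a methyltransferase gene, and the lipase gene Lipm (-2.77 ± 0.56) had separated groups as well.

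Genes of the response to type I interferon were lower in part. Of 20 tested, 7 were lower in all 3 pairs, beside 19.8% of all genes, 1 was higher, beside 8.77%, and 0 passed in limma. Their median was -0.55, most of it from the WT_1 pair (-1.38, against -0.23 in WT_2 and -0.21 in the pair labelled KO). Only 1 of the 20 was separated, downward, beside 7.95% of all genes. This was Ifit3, an interferon-induced antiviral gene, which read 68.43, 13.9 and 6.69 FPKM in DN and 0.95, 4.42 and 1.51 in TIM-3_SP. Ifitm3 and Ifnar2, given next, were not members of this list. Ifitm3, a membrane protein that blocks virus entry and the third of the strongest lower genes, read 15.41, 11.11 and 52.77 FPKM in DN and 0.38, 0.52 and 6.91 in TIM-3_SP (-3.11 ± 0.50, adjusted p = 0.201). Ifnar2, a chain of the type I interferon receptor chosen after its values were seen, read 84.49, 66.82 and 53.89 FPKM in DN and 11.03, 15.11 and 13.08 in TIM-3_SP. Its values were close within each population (-2.29 ± 0.51, adjusted p = 0.329).

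The regulators of cell state and signalling gave the same counts of calls, 0 in each list. Of 24 naive and memory genes, many of which Tim-3+ cells are known to express less, 19 were lower in all pairs and 0 were higher, with a median of -1.99. Ccr7, Cxcr5, S1pr1 and Il7r are counted both here and in the receptor lists, so these lists are not independent. Tcf7 itself read 168.1, 101.65 and 75.57 FPKM in DN and 12.06, 7.36 and 15.69 in TIM-3_SP (-3.17 ± 0.55, limma adjusted p = 0.207). Of 21 exhaustion and effector transcription factors, 6 were higher in all pairs and 1 was lower. Id2, an inhibitor of E proteins that favours effector cells, read 871.41, 795.08 and 372.77 FPKM in DN and 1969.87, 3194.75 and 2364.69 in TIM-3_SP (1.95 ± 0.53). Tox, a driver of exhaustion, differed in direction between pairs (0.24). Among 22 feedback regulators, 4 were lower in all pairs, a share near the 19.8% of all genes, and 3 were higher. Of the 22, 4 were separated downward, the same 4, beside 787 of all 9904 genes (7.95%). The 3 higher genes, Sh2d2a, Dusp5 and Cish, had overlapping groups. The diacylglycerol kinase gene Dgka, a brake on T cell receptor signalling, read 109.1, 56.24 and 34.61 FPKM in DN and 28.54, 23.44 and 14.25 in TIM-3_SP. Pik3ip1, an inhibitor of PI3 kinase, had -2.22 ± 0.50.

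Of 25 mitosis genes, 11 were higher in all pairs and 1 was lower, with a median of 0.84 that was 0.81 in WT_1, 1.13 in WT_2 and 0.08 in the pair labelled KO. Birc5, or survivin, read 3.95, 16.41 and 104.6 FPKM in DN and 34.05, 180 and 211.3 in TIM-3_SP. Tk1, a thymidine kinase of S phase, was separated, with 1.92 ± 0.53. Of 15 S100, annexin and galectin genes, 9 were higher in all pairs and 2 were lower. S100a4, a calcium-binding protein of effector cells, read 1203, 1500 and 906.1 FPKM in DN and 2093, 4926 and 7014 in TIM-3_SP. Of 28 ribosomal protein genes, 20 were lower in all pairs and 0 were higher, with a median of -0.35, which was -0.17 after the shift to a common median. Glycolysis (-0.09) and oxidative phosphorylation (-0.18), the main routes to ATP, had medians near that of all genes. Asns, asparagine synthetase, read 5.33, 132.7 and 128 FPKM in DN and 0.62, 37.47 and 15.23 in TIM-3_SP, lower in each pair. In all of these lists 0 genes passed in limma.

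The remaining lists held 0 passing genes each. Over all genes, 8.77% were higher in all pairs and 19.8% were lower. The lower counts of the integrin, sterol synthesis and housekeeping lists were near that share, and that of interleukin receptors was under it. Among costimulatory receptors 4 of 13 were higher in all pairs and 0 were lower, led by Tnfrsf9 (4-1BB), at 216.8, 207.0 and 46.17 FPKM in DN and 444.1, 332.3 and 234.8 in TIM-3_SP. Interleukin receptors had 1 of 16 higher and 2 lower, among the latter Il7r, the survival receptor of memory cells (-2.06 ± 0.59). Integrins and tissue residency genes had 1 of 11 higher and 2 lower, immediate early and stress genes 2 of 23 higher and 1 lower, and DNA replication genes 4 of 25 higher and 1 lower. No amino acid transport and stress gene was higher in all pairs and 6 of 12 were lower, Asns included, and of 13 sterol synthesis genes 3 were lower. Class I antigen presentation genes (13 tested) had none with one direction, T cell identity genes 2 of 14 higher and 1 lower, and housekeeping genes 3 of 13 lower.

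**Figure D4:**
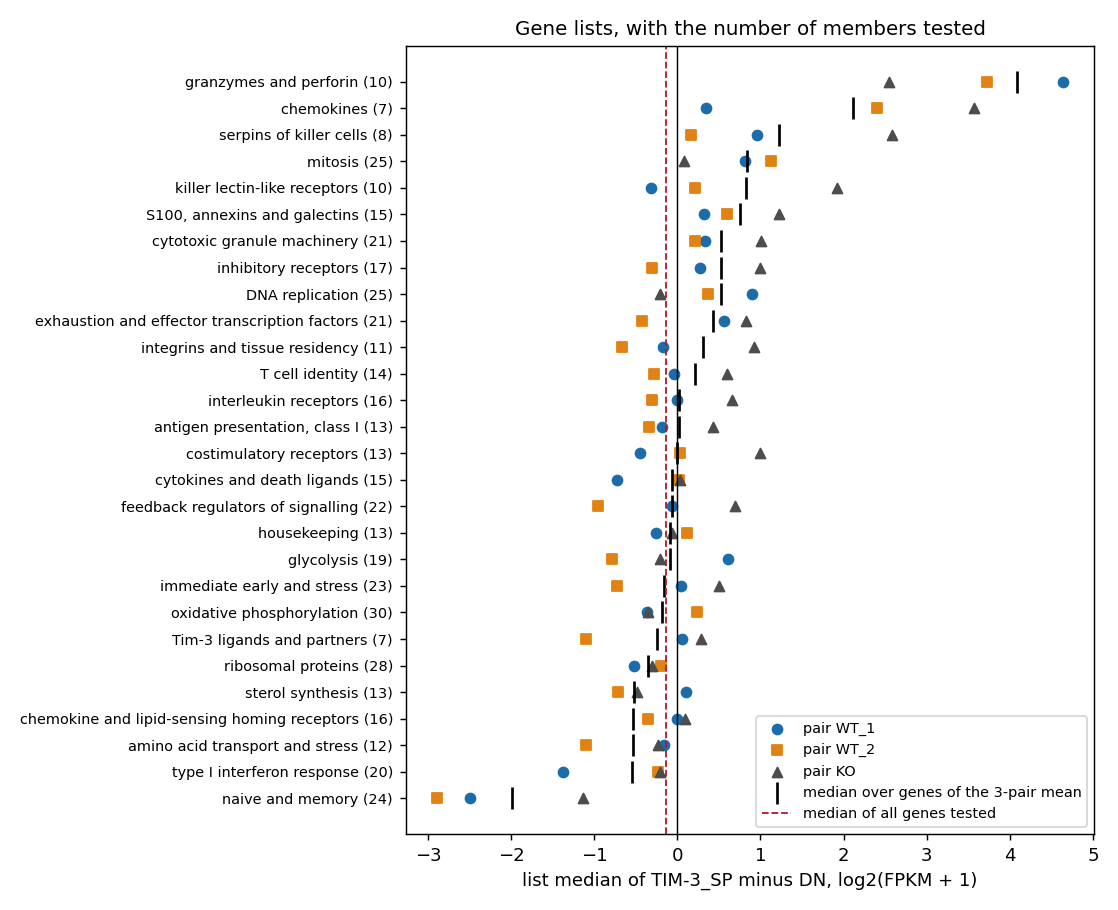
Median of TIM-3_SP minus DN on the log2(FPKM + 1) scale over the tested members of each gene list, 1 marker per pair, a bar for the median over genes of their 3-pair mean and a dashed line for the median of all genes (-0.14). Granzymes and perforin (4.08) lie farthest to the right and naive and memory genes (-1.99) farthest to the left.

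Markers of other cell types moved with some of these genes. Of 20 myeloid and class II markers, 11 were tested, 6 had a mean under 1 FPKM and 3 were not listed in all 6 libraries. The summed level of the 11 tested was 319.6 to 692.4 FPKM in DN and 179.3 to 285.7 in TIM-3_SP, so the groups did not overlap in this sum. Of the 11, 3 were lower in all pairs. The macrophage markers Csf1r, Adgre1 and Itgam were at most 0.76 FPKM in any library, but other markers of the list were present. Cd68, a lysosomal protein abundant in macrophages, read 79.79, 88.27 and 7.1 FPKM in DN and 62.41, 17.85 and 6.91 in TIM-3_SP, Lyz2 reached 16.35 and 15.43 in the WT_2 libraries, and Fcgr3 (12.52) and Cd14 (10.87) were highest in TIM-3_SP WT_1. In every library most of the sum came from Cd68 together with Cd74, the class II invariant chain, and Fcer1g, an Fc receptor chain. Cd74 read 355.8, 162.8 and 65.64 FPKM in DN and 51.03, 45.66 and 75.48 in TIM-3_SP, and Fcer1g 104.45, 24.71 and 242.66 against 21.03, 93.62 and 166.5, so Cd74 and Fcer1g differed in direction between pairs. The 2 B cell markers tested, of 7 listed, were Cd79b and Blnk. Their sum was 6.44 to 32.77 FPKM in DN and 0 to 6.08 in TIM-3_SP, while Cd79a, a defining B cell gene, was at most 0.58 in any library. The part of these markers in the lower levels of Cxcl10, Pou2af1, Btla, Cxcr5 and the interferon genes was not tested. The 5 CD4 and regulatory T cell markers tested, of 6 listed, summed to 4.2 to 21.92 FPKM in DN and 10.69 to 56.71 in TIM-3_SP. Of 7 stromal and endothelial markers only Pecam1 was tested, and 4 others had a mean under 1 FPKM. Pecam1 read 2.19 to 12.12 FPKM in DN and 2.91 to 21.69 in TIM-3_SP. The groups overlapped in both cases.

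In B7S1R_SP, the third sorted population (Tim-3 negative and B7S1R positive), the same genes were read for side-by-side values only. Fcrl6 was at 2.16, 0.43 and 0.03 FPKM there and Xcl1 at 747.8, 522.1 and 373.8, while Ccl9, at 12.39, 25.05 and 205.75, was above both its DN and its TIM-3_SP level in each set. These differences were not tested.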

How the data were processed

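RNA from sorted cells was made into libraries with the SMARTer ultra low input kit and sequenced on HiSeq machines, per the labels' protocols. The authors deposited FPKM per gene symbol for each library, per the file headers, with 2 decimals and 0 as the lowest value. HISAT2, Bowtie2, RSEM and mm10 are named without versions in the submitters' processing notes, and annotation and filters are not given in the sources used here. Read depth behind the FPKM values is unknown, so no counting interval is given. Populations and pairs come from the library titles. Symbols listed once in each of the 6 files and with a mean of at least 1 FPKM were fitted as log2(FPKM + 1) in limma 3.58.1 (R 4.3.3) with population and pair as terms, and p-values, all two-sided, were adjusted by Benjamini-Hochberg over all 9904 genes at a threshold of 0.05. The 2 residual degrees of freedom were joined to a prior of 6.11. With 3 pairs, an exact test of one gene alone cannot go below p = 0.25.

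The fit was tested on simulated data for this comparison, with 50 changed genes per size among 9904. It called 0% of genes changed 4-fold, 44% of those changed 16-fold and 88% of those changed 64-fold, with 1 false call among 9704 genes. The changed genes were drawn only from those of higher mean level, with noise independent between libraries. These rates therefore do not cover low genes such as Mrgprb3 or Tmprss6.

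Genes named are checks of the sort, all genes past the threshold, the 15 in each direction with the largest weakest-pair difference (without granzymes, memory genes, predicted genes, pseudogenes, histones, small RNAs, receptor segments and mitochondrial genes), and up to 4 members per list and direction by the same ranking, with further list members where a sentence on the list uses them. The 34 lists, 6 of them markers of other cell types, and the members were chosen with earlier results of these data known. NK markers (2 of 5 tested, median 0.80) and erythroid markers (3 of 6, median -0.33) had 0 genes passing. Alternatives changed the pseudocount, filter, block, scaling, prior, set of libraries or pairs. Promoter sequences were matched by symbol for 9 of the 15 higher and 14 of the 15 lower genes. One member of the homing receptor list is not reported here by name.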

Additional observations from a re-analysis of the deposited data

Results flagged for a closer look

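Il15ra, which encodes the receptor chain that presents interleukin-15, differed between genotype labels in direction. It read 37.85 and 35.31 FPKM in the wild-type DN libraries and 5.81 and 16.98 in the wild-type TIM-3_SP libraries, differences of -2.51 and -1.01 on the log2(FPKM + 1) scale. In the pair labelled KO it read 7.99 in DN and 17.97 in TIM-3_SP, a difference of 1.08. All wild-type pairs thus moved one way and the 1 pair labelled KO the other, and the difference was not tested.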

How the results depend on the processing

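The number of genes past the threshold in limma depended on the processing. With 4 higher and 0 lower as reported, a pseudocount of 5 FPKM gave 11 and 8, a prior with an intensity trend 31 and 33, and a common median 6 and 1. A pseudocount of 0.1, no filter, or counting unlisted genes as 0 FPKM gave 0 higher and 0 lower. Leaving out 1 pair gave 0 to 11 higher (0 without WT_2, 11 without the pair labelled KO) and 0 to 14 lower. Without the replicate block 1 gene was higher; the other counts of calls stayed within 1.5 times. Whether the pairs share more than a label was not settled. The deviations of TIM-3_SP and DN from their group means correlated at 0.324 in WT_1, 0.0996 in WT_2 and 0.432 in the pair labelled KO, against -0.332 to 0.096 across pairs. Genes higher in every pair numbered 536 at a mean of at least 5 FPKM, 1589 with a common median, 1445 with quantile normalization and 1609 to 2362 with 1 pair left out. Genes lower in every pair numbered 1303, 1270, 1499 and 2879 to 3466 in the same order. The higher counts over fewer pairs follow from the fewer pairs that had to match. Cd4 changed sign to 0.13 (common median), 0.17 (quantile) and 0.05 (pseudocount 5), and ran from -0.08 to 0.58 with 1 pair left out. Pdcd1 ran from -0.09 to 1.15 with 1 pair left out. Under the alternatives run, 0 of the values of the 15 strongest higher and 15 strongest lower genes changed sign. This follows in large part from the choice, because these genes were picked for a large difference of one sign in every pair. Leaving out a pair or changing the pseudocount, filter, block or prior could not reverse them, so those alternatives do not test their direction. With the intensity trend 10 of the 15 and 10 of the 15 passed, and these counts too are for genes picked from the same libraries. Except where stated, the cause was not tested. Of simulated 4-fold changes, made in genes of higher level only, 0% passed in the fit as reported and 12% with the intensity trend. Depth is unknown, and its effect was not tested.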
